A study of Rattus norvegicus with 11 samples.

Results

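rno-miR-183, rno-miR-96 and rno-miR-182, below miR-183, miR-96 and miR-182, are 3 rat microRNAs processed from neighbouring hairpins of 1 genomic cluster. They were chosen by name, as the arrays list them without a star, and are 3 of the 340 miRNA names that both array designs of the series share. All 3 were detected on all 11 arrays and entered the test, which covered 152 miRNAs. The arrays measured total RNA of pancreatic islets from female Sprague Dawley rats aged 13 weeks. HFD daughters had fathers fed pellets with 43% fat, and Control daughters had fathers fed chow with 9% fat. The fathers were 15 weeks old at mating, the mothers ate chow, and all daughters ate chow from weaning at 3 weeks. Before the islets were taken, both groups had been given injected glucose at 6 and again at 12 weeks of age, and injected insulin at 11 weeks, as tolerance tests. There were 5 HFD and 6 Control samples. A first array design held 4 HFD and 4 Control arrays, and a second held 1 HFD and 2 Control arrays. The labels do not say whether the samples come from separate animals or litters, so p-values measure the spread between these samples, which may be in part technical.

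MicroRNAs are short RNAs that lower the output of mRNAs carrying a match to their seed, the bases near the 5′ end. The miR-183 cluster is known from sensory organs such as the retina and the hair cells of the inner ear, and mutations in the seed of miR-96 cause hearing loss in humans and mice. In a mouse insulin-secreting cell line, raised miR-96 was reported to lower hormone release through proteins of the secretory granule. In human cancer cells, miR-96 and miR-182 were reported to hold down FOXO1, a transcription factor that insulin signalling switches off.

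The mature sequences carry the likeness within the family and what tells its members apart. They are RefSeq entries of the GRCr8 build, matched by name for all 3, printed 5′ to 3′ with the seed, bases 2 to 8, in capitals.
rno-miR-183: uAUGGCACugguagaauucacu
rno-miR-96: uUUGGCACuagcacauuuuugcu
rno-miR-182: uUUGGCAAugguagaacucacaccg
Counting positions from 1 at the 5′ end, the seeds of miR-183 and miR-96 differ by A2U, those of miR-96 and miR-182 by C8A, and those of miR-183 and miR-182 by both. All 3 seeds hold the same 5 bases in the middle, and 0 of the other mature rat miRNAs in that table of 693 names share any of these seeds exactly. Over their whole length miR-183 and miR-182 are the closest pair, with 18 of the first 22 positions identical. miR-183 and miR-96 share 13 of 22 positions, and miR-96 and miR-182 share 12. The hairpins lie on the minus strand of chromosome 4, miR-183 at chr4:59756044-59756153, miR-96 at chr4:59755841-59755946 and miR-182 at chr4:59752246-59752307. In the direction of transcription miR-183 comes first, miR-96 follows after 97 bases, and miR-182 after a further 3533 bases. The protein-coding genes Nrf1 and Ube2h flank the cluster, no protein-coding gene overlaps it, and a further miRNA gene, Mir3553, is annotated on the opposite strand across the miR-183 hairpin.

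Arrays were scaled to a common 75th percentile over the 85 miRNAs detected on every array, and levels are log2 of the scaled signal. HFD 653 stood apart on the first design. It detected 105 shared miRNAs against 138 to 157 on the other 7 arrays, and its negative control spread was 38.2 against 6.38 to 7.53. miR-375, the most studied miRNA of islet endocrine cells, was detected on all 11 arrays at 12.0 to 12.8. Of 3 brain miRNAs, miR-128 was detected on at least 1 array, and miR-124 and miR-9 were detected on none.

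None of the 3 cluster members passed the test between the islets of HFD and Control daughters. limma with array design as a block called 0 of the 3 at an adjusted p of 0.05, and 0 of the 3 had an unadjusted p under 0.05. The background over all 152 tested miRNAs was 0 calls (0.0%) after adjustment and 3 (1.97%) before. miR-183 and miR-96 read lower in HFD and miR-182 higher, each by about its standard error or less. Of all 152 miRNAs 44 (28.9%) read below 0, and their median difference was 0.066. On the first design the HFD and Control arrays overlapped for all 3 members, while 1.32% of the 152 miRNAs had groups that did not overlap. In these bulk samples fewer cells of a type and less RNA per cell cannot be told apart.

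miR-183 read 8.95, 9.27, 9.44 and 9.56 on the HFD arrays of the first design (603, 607, 644 and 653). The Control arrays 602, 613, 615 and 639 read 9.28, 9.20, 9.60 and 9.65. HFD 603 was the lowest of the 8, and the other 7 were interleaved. On the second design HFD 640 read 7.94, against 8.22 and 8.14 on Control 635 and 652, so the lone HFD array lay below both. The fitted difference was -0.15 ± 0.14 on the log2 scale (SE), a 0.90-fold level in HFD with a 95% interval of 0.73-fold to 1.11-fold (limma adjusted p = 0.987, 2-sided exact permutation p = 0.267 over 210 within-design splits). Without HFD 603 it was -0.072. The second design alone gave -0.24 and the first alone -0.13, and the difference between designs was -0.11 ± 0.33 (SE; limma adjusted p = 0.996).

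miR-96 read 8.43, 8.72, 8.95 and 8.64 on HFD 603, 607, 644 and 653. On Control 602, 613, 615 and 639 it read 8.21, 9.01, 9.18 and 9.10. Control 602 lay below all HFD arrays, while the other 3 Control arrays lay above all of them. On the second design HFD 640 read 10.06, against 9.86 and 9.95 on Control 635 and 652. The fitted difference was -0.10 ± 0.19 (SE), 0.93-fold with a 95% interval of 0.70-fold to 1.24-fold (limma adjusted p = 0.987, 2-sided exact permutation p = 0.586). The second design alone gave 0.16 and the first alone -0.19, so the sign differed, and that difference of 0.34 ± 0.44 (SE) did not pass (limma adjusted p = 0.996). Single arrays moved this value in both directions. It was -0.25 without Control 602 (limma adjusted p = 0.932), -0.19 without HFD 640 and -0.16 without HFD 644. It was -0.019 without Control 615, -0.030 without HFD 603, -0.038 without Control 639 and -0.060 without Control 613.

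miR-182 read 6.12, 6.83, 6.68 and 7.38 on HFD 603, 607, 644 and 653, so HFD arrays held both the lowest and the highest value of the first design. Control 602, 613, 615 and 639 read 6.35, 6.55, 6.89 and 6.93, all inside the HFD range. On the second design HFD 640 read 6.54, above Control 635 and 652 at 6.15 and 6.25. The fitted difference was 0.14 ± 0.21 (SE), 1.1-fold with a 95% interval of 0.79-fold to 1.53-fold (limma adjusted p = 0.987, 2-sided exact permutation p = 0.567). Without HFD 653 it was -0.0059, and without HFD 603 it was 0.30 (limma adjusted p = 0.941). It was 0.067 without Control 602 and 0.071 without HFD 640.

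**Figure D1:**
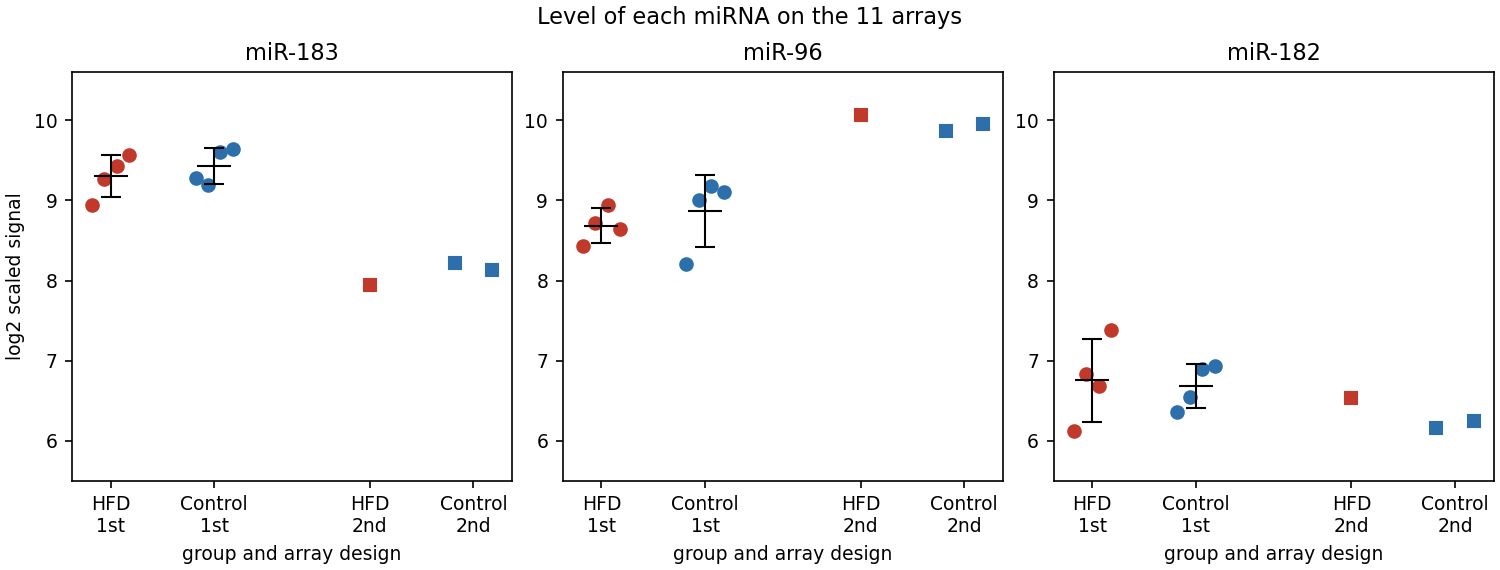
Log2 scaled signal of miR-183, miR-96 and miR-182 on each of the 11 arrays, with HFD in red and Control in blue, circles for the first array design and squares for the second, and bars for mean ± SD of the 4 first-design arrays of a group. HFD and Control overlap on the first design in every panel, while the step between designs runs down for miR-183 and up for miR-96.

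**Figure D2:**
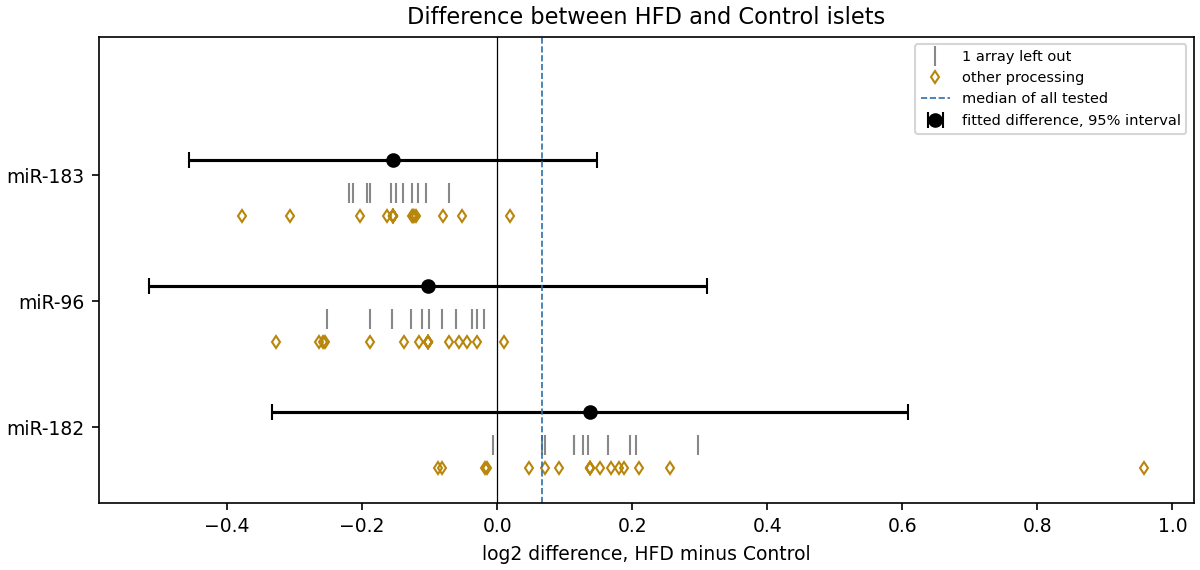
HFD minus Control difference on the log2 scale for each miRNA, with the fitted value and its 95% interval in black, fits that leave out 1 array as grey ticks, and other processing as open diamonds. The intervals all cross 0, and the diamond far to the right of the others, at 0.96, is miR-182 taken as the median over its probes.

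Each member is measured by several probes, printed on the array as 20 spots per miRNA, and the same probes are on both designs. The 2 probes of miR-183 both read lower in HFD on the first design, with differences of -0.28 for probe A_26_P00001413 and -0.10 for A_26_P00001414 on the log2 scale. A_26_P00001414 carried 83.4% to 89.2% of the summed miR-183 signal there. On HFD 653 A_26_P00001413 had 1 of 10 spots well above background, against 10 of 10 on each other first-design array. The probes of miR-96 had opposite signs, 0.048 for A_26_P00001288 and -0.37 for A_26_P00001289. A_26_P00001289 read 182.5 to 263 in scaled signal on HFD arrays, and on Control arrays 161 to 360. On the first design miR-182 rested on 1 of its 3 probes. A_26_P00001809 read 79.2 to 130.5 on HFD arrays and 84.7 to 124 on Control arrays, a difference of -0.021, with 46 of 48 spots well above background.

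The other probes of miR-182, A_26_P00001807 and A_26_P00001808, had 0 of 56 spots each well above background on the first design. On HFD 653 they read 19.2 and 17.4 in scaled signal, and A_26_P00001809 carried 78.1% of that array's miR-182 sum. On the Control arrays they read between -5.47 and 2.73. The high miR-182 value of HFD 653 includes signal from probes that did not rise well above background. On that array 4 of 20 miR-182 spots were well above background, against 6 of 20 on each other first-design array. On the second design A_26_P00001808 carried 18.2% of the miR-182 sum on HFD 640, and 18.8% and 18% on Control 635 and 652, with 5 of 7 spots well above background on HFD 640 and 0 of 7 on Control 635 and on Control 652. A_26_P00001807 had 0 of 21 spots well above background there.

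**Figure D3:**
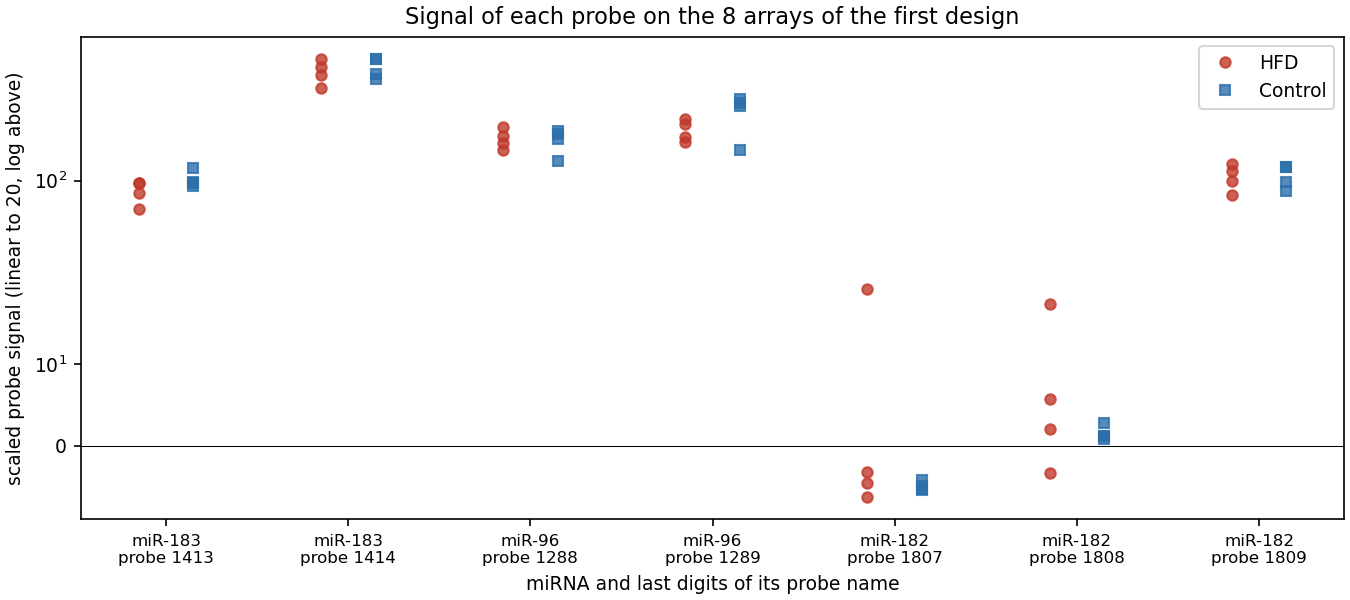
Scaled signal of each probe of the 3 miRNAs on the 8 first-design arrays, HFD as red circles left of Control as blue squares, on an axis that is linear up to 20 and logarithmic above. A_26_P00001807 and A_26_P00001808 of miR-182 lie near 0 except for 1 HFD point each, the array HFD 653, at 19.2 and 17.4.

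Ratios between 2 members on the same array need no scaling between arrays. Their size depends on the probes and is no measure of relative abundance, so only differences between arrays are read here. The log2 ratio of miR-183 to miR-182 averaged 2.55 ± 0.30 in HFD and 2.75 ± 0.12 in Control on the first design (SD, n = 4 each). The fitted difference over both designs was -0.29 ± 0.14 (SE), with a 95% interval of -0.61 to 0.026. The ratio of miR-96 to miR-182 was 1.93 ± 0.49 in HFD and 2.19 ± 0.25 in Control (SD, n = 4 each), a difference of -0.24 ± 0.21 (SE). Both ratios involve the dim miR-182 probes on HFD 653, where they were the lowest of the first design, at 2.18 and 1.26. Without HFD 653 the miR-96 to miR-182 difference was -0.076 and that of miR-183 to miR-182 was -0.21. The ratio of miR-183 to miR-96 was 0.62 ± 0.20 in HFD and 0.56 ± 0.37 in Control (SD, n = 4 each), a difference of -0.051 ± 0.18 (SE). Its sign was not stable, with 0.062 on the first design alone and 0.058 without Control 602. It was -0.15 without Control 613, -0.14 without HFD 653, -0.098 without Control 615, -0.033 without HFD 644 and -0.012 without Control 635.

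The widest shifts in these ratios lay between array designs. The log2 ratio of miR-183 to miR-96 was -2.12 to -1.65 on the second design and 0.19 to 1.07 on the first, a 5.46-fold shift of the mean. miR-183 lay lower on all second-design arrays than on any first-design array, as did 17.8% of the 152 miRNAs, and miR-96 lay higher, as did 36.2%. Control arrays alone gave a level on the second design minus that on the first of -1.25 for miR-183, 1.04 for miR-96 and -0.48 for miR-182, against a median of 0.23 over all tested. Within miR-183 A_26_P00001414 read 140.5 to 175 on the second design and 430 to 679 on the first, while A_26_P00001413 read 105.5 to 123 on the second and 63.8 to 123 on the first. Array design, slide, scan and version of the extraction software coincide in this series, so their parts in this shift cannot be told apart.

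**Figure D4:**
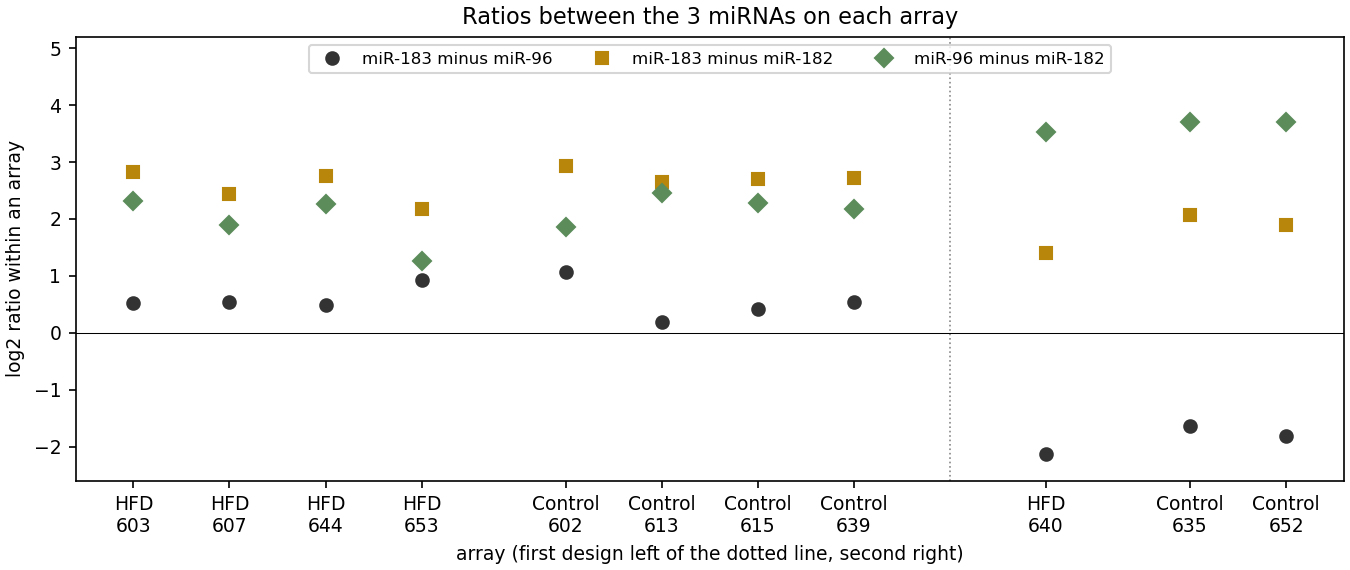
Log2 ratio between each pair of the 3 miRNAs within every array, first-design arrays left of the dotted line and second-design arrays right of it, HFD before Control on each side. The miR-183 to miR-96 ratio lies above 0 on all 8 first-design arrays and below 0 on the 3 second-design arrays.

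Across the 8 first-design arrays miR-183 and miR-182 moved together. Pearson's r was 0.82 (exact permutation p = 0.0133, adjusted over 3 pairs 0.0398) and Spearman's rho 0.81 (exact permutation p = 0.0218, adjusted 0.0653). For miR-183 and miR-96 r was 0.58 (exact permutation p = 0.129, adjusted 0.194) and rho 0.55 (p = 0.171, adjusted 0.216). For miR-96 and miR-182 r was 0.45 (exact permutation p = 0.269, adjusted 0.269) and rho 0.50 (p = 0.216, adjusted 0.216). As background, r was compared with that of 11325 pairs of tested miRNAs, whose median was 0.061. Of these pairs 94.2% had a lower r than miR-183 and miR-182, so many other pairs moved together as closely. Pairs of related miRNAs were not set apart. The share was 81.6% for miR-183 and miR-96 and 73.7% for miR-96 and miR-182. Leaving out the 2 arrays farthest from the median of the first-named miRNA gave r of 0.71 for miR-183 and miR-182 (exact permutation p = 0.101, n = 6), 0.33 for miR-183 and miR-96, and -0.50 for miR-96 and miR-182. For miR-183 and miR-182 the adjusted p was above 0.05 on leaving out any single array but HFD 607 or HFD 653. Without HFD 603, the lowest array for both, r was 0.68 (exact permutation p = 0.0847, adjusted 0.254, n = 7), so the relation rested in part on single arrays. Cross-hybridisation between miR-183 and miR-182, whose sequences are printed above, was not tested.

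The levels also differed by slide row. The slide of the first design had 2 rows, each with 2 HFD and 2 Control arrays. miR-183 read 9.44 to 9.65 in row 2 and 8.95 to 9.28 in row 1, with no overlap. The rows did not overlap for 11.2% of the 152 miRNAs, and all row 2 arrays lay above all row 1 arrays for 5.26%. The mean of row 2 minus that of row 1 was 0.39 for miR-183, 0.38 for miR-96 and 0.51 for miR-182, against a median of 0.047 over all tested. miR-96 and miR-182 overlapped between rows. Centred by row, r for miR-183 and miR-182 was 0.59 (exact permutation p = 0.158 over 576 orders within rows). It was 0.18 for miR-183 and miR-96 and 0.059 for miR-96 and miR-182. The miR-183 difference between HFD and Control was -0.12 in row 2 and -0.13 in row 1. For miR-96 it was -0.34 and -0.032, and for miR-182 it was 0.12 and 0.024. Because each row held 2 HFD and 2 Control arrays, a block for slide row could not change the fitted differences. It changed only their error (limma adjusted p = 0.970 for each).

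Acinar miRNAs also split by slide row, in the opposite direction. Acinar cells make the digestive enzymes of the pancreas and can remain in an islet preparation. Of 4 acinar markers 2 are on both designs, miR-216a and miR-217, and both were detected on at least 1 array. Their summed scaled signal was 23.0 to 281 in row 2 and 332 to 732 in row 1. By group it was 116.5 to 732 on the first-design HFD arrays and 23.0 to 684 on Control arrays. HFD 603, lowest for miR-183 and miR-182, had the highest acinar sum, 732. Control 602, lowest for miR-96, had the next highest, 684, but also the highest miR-183 level of row 1, 9.28. HFD 653, highest of the first design for miR-182 at 7.38, had the highest acinar sum of row 2, 281. No correlation with the acinar sum was computed. The summed endocrine markers miR-375, miR-7a and miR-7b, all 3 detected, ran from 12005 to 14764 on the first-design HFD arrays and from 11423 to 16200.1 on the Control arrays. The leukocyte sum, with 3 of 4 markers detected on any array and miR-142-5p on none, was 36.9 to 391.6 on the first-design HFD arrays and 36.4 to 44.3 on the Control arrays. HFD 603 was the highest and HFD 653 the next, at 137. On the second design it was 160.2 on HFD 640 and 85.5 to 161 on the Control arrays. On the first design the endothelial sum (2 of 2 markers detected) was 385 to 674 on HFD arrays and 427 to 552 on Control arrays, and the mesenchymal sum (4 of 4) 276 to 599 on HFD arrays and 265 to 452 on Control arrays. The red blood cell sum (1 of 2, miR-144 not detected) was 0 to 8.95 on HFD arrays and 0 to 6.27 on Control arrays. The neuronal sum (1 of 3 detected, miR-128) was 45.1 to 54.3 on HFD arrays and 37.7 to 54.3 on Control arrays. The part of these other cell types in the levels of the 3 miRNAs was not tested. With each array scaled by its own miR-375 in place of the percentile, the differences were -0.12 for miR-183, -0.072 for miR-96 and 0.17 for miR-182.

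**Figure D5:**
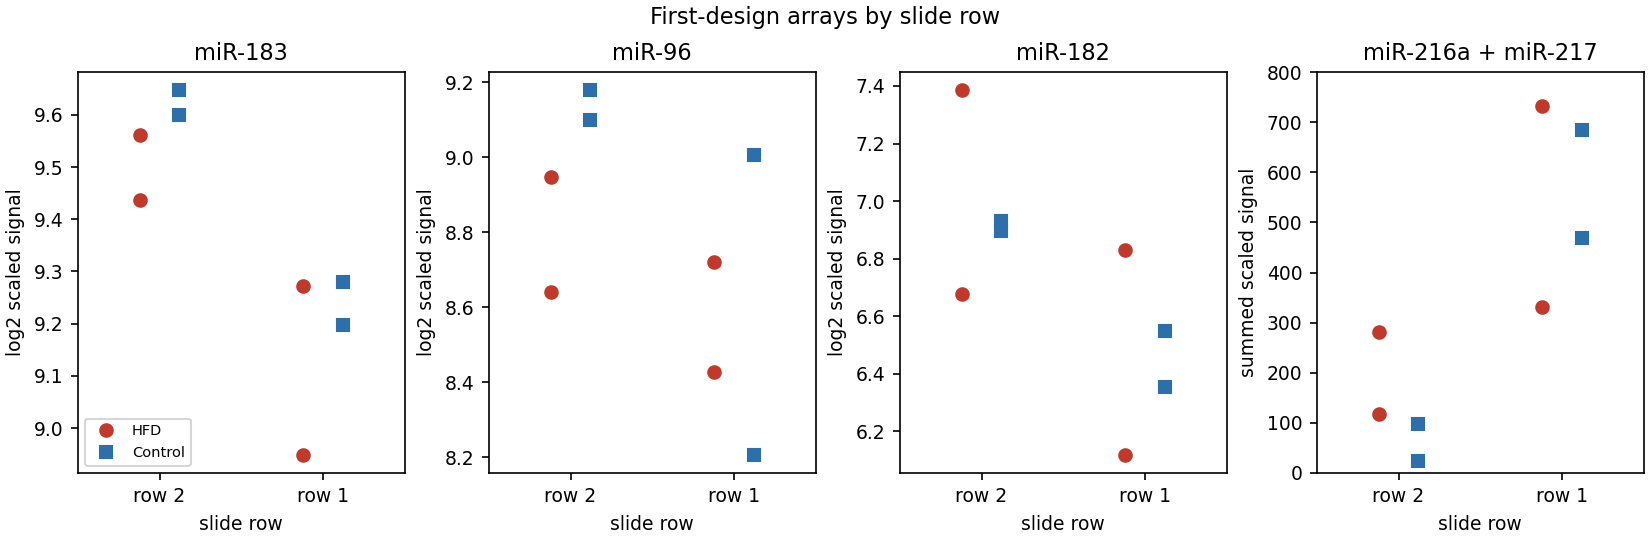
The 8 first-design arrays split by slide row, row 2 left of row 1, HFD as red circles and Control as blue squares, with log2 scaled signal of each miRNA and, at the far right, the summed scaled signal of the acinar miRNAs miR-216a and miR-217. The rows do not overlap for miR-183 or for the acinar sum, which run in opposite directions.

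The miRNAs whose pattern over the 8 first-design arrays was most like each member were in no case another member. For miR-183 they were miR-98 (r = 0.89), miR-30b-3p (0.88) and miR-598-3p (0.86), with miR-182 at rank 4 and miR-96 at rank 18 of 150. For miR-182 they were miR-429 (0.95), miR-129 (0.93) and miR-425 (0.91), with miR-183 at rank 12 and miR-96 at rank 48. For miR-96 they were miR-136 (0.93), miR-384-5p (0.93) and miR-186 (0.91), with miR-183 at rank 37 and miR-182 at rank 60. These correlations are descriptions over 8 arrays that share slide, scaling and groups. 1 of the 152 tested miRNAs had the same value on all 8 arrays and no correlation. The median r with the other 150 was 0.057 for miR-183, 0.086 for miR-182 and 0.25 for miR-96.

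The miRNAs of lists chosen here as related, by tissue or reported target, also passed no test. Of 7 retina and sensory miRNAs 3 were tested, all 3 read above 0, and their median difference was 0.22. They were miR-204 at 0.22, miR-181a at 0.70 and miR-125b-5p at 0.098. Of 6 islet endocrine miRNAs 5 were tested, 4 above 0 and 1 below, with a median of 0.064. Among them miR-375 had -0.031, miR-7a 0.050 and miR-7b 0.064. Of 5 epithelial miRNAs of the miR-200 family all were tested, 4 above 0 and 1 below, with a median of 0.0083, and with -0.054 for miR-200a, 7.2e-05 for miR-200b and 0.0083 for miR-200c. miR-27a, reported with miR-96 and miR-182 to act on FOXO1 in human cells, had 0.15 ± 0.15 (SE). Of these 3, 2 read above 0 and 1 below. Because 2 of them are cluster members, their median of 0.14 is the miR-182 value itself, and only miR-27a adds to what is given above. limma called 0 of the members of each list, against 0.0% of all 152, and the median over all 152 was 0.066.

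The passenger strands miR-183* and miR-96*, the strands of the hairpins that are usually degraded, are on the second design. Neither was detected on its 3 arrays, whose summed unscaled signals ran from -12.4 to 12.9 for miR-183* and from -6.2 to 9.45 for miR-96*. miR-182* and miR-1271, which shares the seed of miR-96 in humans, are on neither design under these names.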

How the data were processed

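Per the labels, 1-colour Agilent miRNA arrays each received 100 ng of Cy3-labelled total RNA. The deposited spot intensity was background-subtracted and spatially detrended within each array by Agilent Feature Extraction, version 10.7.3.1 on the second design and 10.5.1.1 on the first, per the file headers, and was not normalised between arrays. The deposited log2 tables of the authors equal, for the 3 miRNAs, log2 of the software's total signal, with 50 added on the first design. The submitters' processing notes also mention Partek and RMA, without saying what each did.

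Unflagged spots were averaged per probe and the probe means of a miRNA added up. Each array was then brought to the mean 75th percentile of the 85 miRNAs with a detection call on every array. A floor of 11.3, the 1st percentile among detected scaled values, was applied before log2 was taken. No member lay at this floor, and no spot was saturated. limma 3.58.1 in R 4.3.3 fitted HFD against Control with array design as a block over the 152 miRNAs detected on at least 5 arrays, 2-sided, with Benjamini-Hochberg adjustment over all of them. The fit was also run on simulated data, with noise independent between arrays and planted differences larger than those of the 3 miRNAs. That run therefore does not inform on differences as small as theirs. Among the alternative fits, a higher floor, other detection filters and a block for slide row could not change the members' differences. A median over probes could not change those of miR-183 and miR-96, and the software's total signal gave the same differences for both. Leaving out HFD 640 gave the same differences as the first design alone. Such fits are therefore no separate evidence for a sign. Exact permutations and correlations were computed in Python 3.11.15. Unscaled signals and the deposited tables keep differences in brightness between arrays. On the first design the 75th percentile signal ran from 652 on HFD 603 to 1052 on HFD 644. Brightness shared by the miRNAs of an array can raise r for any pair. No background over other pairs was computed in those settings, so r there cannot inform on a given pair. The files hold no mean spot signal, so normexp with an offset of 50 used the median spot and background signals. The RMA-like summary took those normexp values, quantile normalised the probes within each design, and applied median polish. The number of arrays limits the precision.

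The members, the related lists and marker lists, the 3 nearest patterns per member and the alternatives were chosen with earlier results of these data known. Scaling by miR-375 and centring by slide row were added after the values were seen. 0 columns of per-sample values were left unmapped.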

Additional observations from a re-analysis of the deposited data

Results flagged for a closer look

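Among 12 groups of 4 first-design arrays (3 miRNAs and 3 ratios in each of HFD and Control), 1 held an array far from the others by Dixon's criterion, where chance gives about 0.6. It was the log2 ratio of miR-183 to miR-96 in HFD. HFD 653 read 0.92 there, against 0.49 to 0.55 on the other 3 HFD arrays, a gap that was 0.857 of the whole range. On HFD 653 miR-183 was the highest HFD value (9.56) and miR-96 the third (8.64). The low miR-96 value of Control 602 came next, with a gap of 0.822 of its group's range, just under the criterion.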

How the results depend on the processing

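Over 29 alternative fits limma called none of the 3 miRNAs (smallest adjusted p 0.801). miR-183 and miR-96 read below 0 in HFD in 28 each and miR-182 above 0 in 24. Some of these fits could not change a value or gave the same one, as given above. The exceptions were 0.0188 for miR-183 with no block for array design, and 0.0109 for miR-96 in the deposited tables. For miR-182 they were -0.087 with the scaling percentile taken over all shared names, -0.0151 with median scaling, -0.0819 under quantile normalisation, -0.0185 with the RMA-like summary, and, on leaving out single arrays, a range of -0.00594 to 0.298. Those first 3 scalings moved the median of all miRNAs by -0.21, -0.15 and -0.14. Relative to that median miR-183 lay at -0.30 to -0.019, miR-96 at -0.30 to -0.091 and miR-182 at -0.091 to 0.90 (above 0 in 28 of 30) over the reported setting and all 29 alternatives. miR-182 lay 0.059 above it with the percentile over all shared names, 0.069 with median scaling and 0.0062 with the RMA-like summary. Under quantile normalisation it lay below that median, at -0.0057. miR-183 had an unadjusted p of 0.0355 with the scaling percentile taken over all shared names (-0.38, limma adjusted p = 0.801) and 0.0215 with the RMA-like summary (-0.20, limma adjusted p = 0.985). Taking the median over probes moved miR-182, whose middle probe had 0 of 56 first-design spots well above background, to 0.96. It moved the miR-183 to miR-182 and miR-96 to miR-182 ratio differences to -1.11 and -1.06. With no block for array design the ratio differences were 0.276 for miR-183 to miR-96, -0.169 for miR-183 to miR-182 and -0.446 for miR-96 to miR-182. With no scaling between arrays limma called 1 miRNA of 152, none of these 3.

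The correlation of miR-183 and miR-182 was 0.735 with the scaling percentile taken over all shared names, 0.728 with median scaling, 0.822 under quantile normalisation, 0.497 with normexp, 0.457 as the median over probes, 0.702 scaled by miR-375, 0.886 within groups, 0.591 within slide rows and 0.708 without the 2 farthest arrays, each with an adjusted exact permutation p above 0.05. Without single arrays it ran from 0.68 to 0.865. It passed 0.05 at 0.892 with the RMA-like summary, 0.811 with the software's total signal and 0.795 with flagged spots kept. Unscaled it passed at 0.870, and in the deposited tables at 0.833. The correlation of miR-183 and miR-96 passed 0.05 at 0.795 with the percentile over all shared names, 0.867 unscaled and 0.861 in the deposited tables. That of miR-96 and miR-182 passed at 0.717 unscaled and 0.807 with the RMA-like summary, and was -0.502 without the 2 farthest arrays. Without scaling, as given above, r cannot inform on a pair. The cause of these changes was not tested. No paired analysis was possible because HFD and Control share no replicate number. Signal over background limits miR-182, which had 46 of 160 first-design spots well above background, against 151 for miR-183 and 157 for miR-96.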
